A study of Mus musculus with 15 samples.

Results

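The enzymes that feed and turn the tricarboxylic acid (TCA) cycle, most of them mitochondrial, are described here at the level of their mRNAs. The set comprised 37 nuclear genes, chosen by name with earlier results of these data known. They were 5 of the pyruvate dehydrogenase complex, 13 of the TCA cycle, 3 of ketone body oxidation, 14 of branched-chain amino acid oxidation and 2 aspartate transaminases. All 37 of 37 were among the 15258 genes listed in the deposited files, and all 37 passed the filter on low values that left 11018 genes for testing. Their lowest value in any library rested on 43 recovered reads, for Dbt.

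The pyruvate dehydrogenase complex turns pyruvate into acetyl-CoA, which citrate synthase passes into the TCA cycle. Ketone bodies and the branched-chain amino acids leucine, isoleucine and valine reach the same cycle through their own enzymes, as acetyl-CoA or, for isoleucine and valine, as succinyl-CoA. The heart is a tissue of high oxidative capacity that draws mainly on fatty acids but also burns pyruvate, ketone bodies and amino acids, and the mix of fuels is known to shift in the overloaded heart.

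The samples were left ventricles of male C57BL/6NRj mice, and RNA was read from transcript 3′ ends by BRB-seq, in which each RNA sample is barcoded and the samples are sequenced in a pool. TAC NRG stands for transverse aortic constriction (TAC), which narrows the aorta and loads the left ventricle, with a minipump that delivered neuregulin-1 (NRG1), a growth factor that acts on ERBB receptors. TAC saline stands for the same constriction with a saline minipump, and sham saline for sham surgery with a saline minipump. Each group had 5 libraries, all labelled as batch 1, and no sham group with NRG1 was analysed here. The labels give no age, dose or time after surgery, and do not say that the libraries came from separate mice, so p-values reflect only the variation among these samples, which may be technical. The RNA was bulk tissue RNA, in which fewer cells of a type and less RNA per cell cannot be told apart.

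Recovered depth was 2.02 to 5.62 M reads per library, with TAC NRG 4 and 5 the shallowest at 2.02 and 2.13 M. By a chi-square of their recovered reads per degree of freedom, these 2 differed from each other by 2.42 and from TAC NRG 1 to 3 by 7.52 to 12.1, where TAC NRG 1 to 3 differed among themselves by 2.98 to 9.38. For the same relative difference this value is smaller in shallower libraries, so it does not measure likeness apart from depth. Levels are given in CPM, here the deposited log2 value taken out of the log and put on a scale of reads per M, so they carry the authors' scaling factor. Relative to scaling by total reads alone that factor lay between -0.19 and -0.01 (log2) in the 10 TAC libraries and between -0.01 and 0.01 in sham saline. The 10 cardiomyocyte markers summed to 51355 to 68274 CPM in TAC NRG, 52115 to 66606 CPM in TAC saline and 63166 to 69218 CPM in sham saline, while the 2 atrial markers in the files (Myl7 and Myl4) summed to at most 5.69 CPM in any library. The 8 fibroblast markers summed to 1813 to 3347 CPM in TAC NRG, 1386 to 2633 CPM in TAC saline and 983 to 1114 CPM in sham saline, and 6 of the 8 rose in each TAC group against sham saline. The 8 macrophage and leukocyte markers summed to 413 to 739 CPM in TAC NRG, 488 to 902 CPM in TAC saline and 426 to 699.9 CPM in sham saline, and 2 of the 8 rose in TAC NRG and 5 in TAC saline against sham saline. The 5 red cell markers summed to 1703 to 3488 CPM in TAC NRG, 980.3 to 1474 CPM in TAC saline and 905 to 2222 CPM in sham saline, and all 5 rose in TAC NRG against both other groups, with median log2 fold changes of 1.03 against TAC saline and 0.93 against sham saline. Of the endothelial markers, Cdh5 fell in TAC NRG against TAC saline. Of the smooth muscle and pericyte markers, Tagln and Cnn1 rose and Rgs5 fell in TAC NRG against sham saline. The fat marker Cidea rose in TAC NRG, with log2 fold changes of 0.45 against TAC saline and 0.67 against sham saline. No other tested marker of these types passed. No listed marker in the files was at 0 in every library. Mitochondrially encoded genes took 25.8% ± 2.35 of reads in TAC NRG, 27.7% ± 1.62 in TAC saline and 31.1% ± 0.47 in sham saline (SD, n = 5 each). The part of cell makeup and of mitochondrial RNA in the results on the 37 genes was not tested.

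After constriction with saline, 18 of the 37 genes fell below sham saline and none rose, and the count differed between the pathways. Branched-chain oxidation genes made up 12 of the 18, the TCA cycle 5 and pyruvate dehydrogenase 1, whereas no ketone or transaminase gene passed the threshold. These counts are at a limma adjusted p of 0.05 over all 11018 genes, of which 10.7% passed in either direction, 4.24% lower and 6.47% higher. The median log2 fold change of the 37 genes was -0.22, against -0.0052 over all genes tested, and 35 of the 37 were below 0, as were 50.9% of all genes. Of the 37, 14 had all 5 TAC saline libraries below all 5 sham saline libraries, which was so for 3.68% of genes tested. The count of 18 was 9 without TAC saline 5 and 11 without sham saline 3, and it depended on the scaling described further on.

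In the constricted ventricle with NRG1 most of these genes were below sham saline as well. In TAC NRG against sham saline 21 of the 37 genes fell and 1, Bdh1, rose, where 16.1% of all genes passed, 7.39% lower and 8.74% higher. The 21 were 11 branched-chain genes, 6 of the TCA cycle, 3 of pyruvate dehydrogenase and 1 ketone gene. The median was -0.26, against -0.012 over all genes, and 36 of the 37 were below 0, as were 52% of all genes. Of the 37, 16 had no overlap between groups with TAC NRG lower, which was so for 5.45% of genes. Both comparisons used the same 5 sham saline libraries, so their values are given side by side below.

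**Figure D1:**
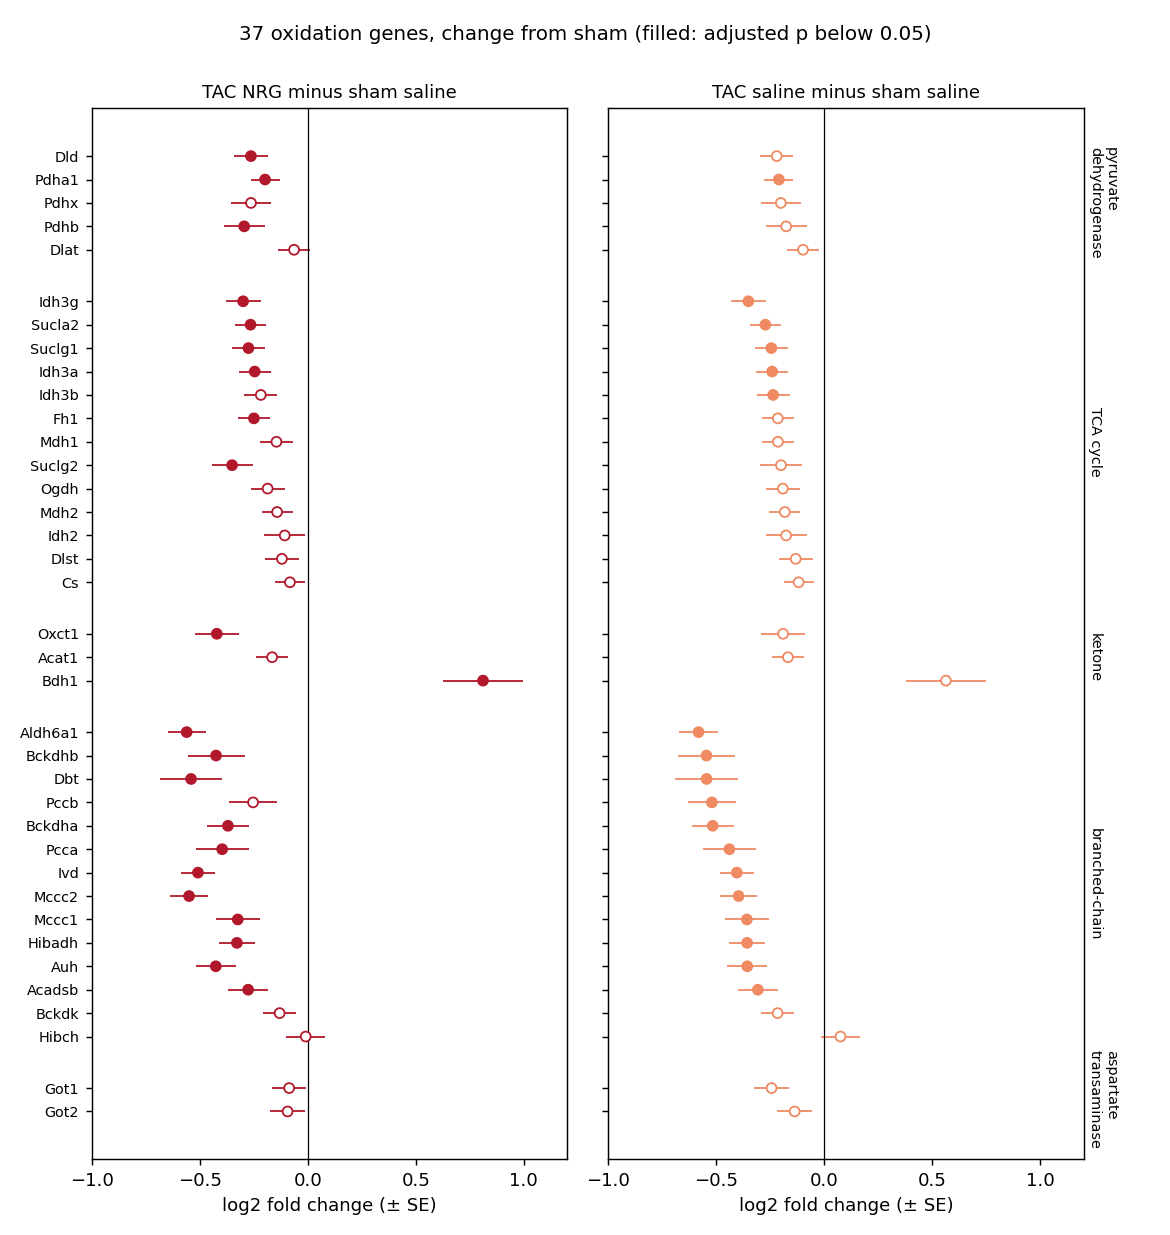
Log2 fold change with its standard error (x axis, n = 5 libraries per group) of each of the 37 genes (y axis, by pathway and in order of TAC saline minus sham saline), for TAC NRG minus sham saline on the left and TAC saline minus sham saline on the right. Filled points passed an adjusted p of 0.05; 36 points on the left and 35 on the right lie below 0, and Bdh1 lies at 0.81 on the left and 0.56 on the right.

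The pyruvate dehydrogenase complex consists of a decarboxylase encoded by Pdha1 and Pdhb, an acyltransferase core (Dlat), a lipoamide dehydrogenase (Dld) and a binding protein that tethers the dehydrogenase to the core (Pdhx). In TAC NRG 3 of these 5 genes fell against sham saline (Pdha1, Pdhb and Dld), and in TAC saline 1 did (Pdha1). Pdha1, the decarboxylase alpha subunit and the site of inhibitory phosphorylation, had 632, 720.2, 632, 684 and 678 CPM in the TAC NRG libraries, 649, 683, 709.8, 656 and 619 CPM in the TAC saline libraries and 737, 762, 830.5, 735 and 772 CPM in the sham saline libraries. Every library of both TAC groups lay below every sham saline library. The log2 fold change against sham saline was -0.20 ± 0.07 in TAC NRG (adjusted p = 0.046) and -0.21 ± 0.07 in TAC saline (adjusted p = 0.0451). These calls passed under 8 of the 26 alternatives at the same threshold in TAC NRG and 11 of 26 in TAC saline, and in TAC saline under none of the 3 other scalings.

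Dld, which the pyruvate, alpha-ketoglutarate and branched-chain ketoacid complexes share, had 363, 383, 342, 363 and 334 CPM in the TAC NRG libraries, 368, 376, 444, 326 and 335 CPM in the TAC saline libraries and 433, 411, 441, 433 and 424 CPM in the sham saline libraries. All TAC NRG libraries were below all sham saline libraries, whereas TAC saline 3 was above every sham saline library and the other 4 TAC saline libraries were below them. Dld fell by 0.26 ± 0.08 in TAC NRG (adjusted p = 0.021), and its log2 fold change in TAC saline was -0.22 ± 0.08 (adjusted p = 0.0678). Without TAC NRG 4 and 5 the TAC NRG value of Dld was -0.24 (adjusted p = 0.0778), and that call was also lost with total reads and with cardiomyocyte marker reads as the scaling. Pdhx had 79.2, 94.4, 90.0, 88.5 and 89.5 CPM in the TAC NRG libraries, 107, 84.1, 105, 79.0 and 88.1 CPM in the TAC saline libraries and 93.3, 113, 102, 108 and 115 CPM in the sham saline libraries, and its groups overlapped. Pdhx had a log2 fold change of -0.26 ± 0.09 in TAC NRG (adjusted p = 0.0533) and -0.20 ± 0.09 in TAC saline (adjusted p = 0.178). Of the remaining subunits, Pdhb fell by 0.29 ± 0.09 in TAC NRG (adjusted p = 0.0349) and stood at -0.18 ± 0.09 in TAC saline (adjusted p = 0.261). The TAC NRG call of Pdhb passed under 17 of the 26 alternatives at the same threshold. Dlat was the subunit nearest to sham saline, at -0.06 ± 0.07 in TAC NRG (adjusted p = 0.625) and -0.10 ± 0.07 in TAC saline (adjusted p = 0.455).

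Of the 13 TCA cycle genes, 6 fell in TAC NRG and 5 in TAC saline, and none rose. All 3 subunits of the NAD-dependent isocitrate dehydrogenase (Idh3a, Idh3b and Idh3g) and 2 of the 3 ligase subunits (Sucla2 and Suclg1) fell in TAC saline. Of these 5 calls, those of Idh3a, Idh3b and Suclg1 passed under 15, 11 and 11 of the 26 alternatives run at the same threshold. In TAC NRG the genes that fell were Idh3a, Idh3g, Sucla2, Suclg1, Suclg2 and Fh1, the last of which encodes fumarase. The other genes were Cs (citrate synthase), Idh2 (the NADP-dependent mitochondrial isocitrate dehydrogenase), Ogdh and Dlst of the alpha-ketoglutarate dehydrogenase complex, and the malate dehydrogenases Mdh1 (cytosolic) and Mdh2 (mitochondrial). None of these 6 passed in either comparison, with adjusted p between 0.0697 and 0.5. The median of the 13 genes was -0.22 in both comparisons, and all 13 were below 0 in each.

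Idh3g, a regulatory subunit of isocitrate dehydrogenase, had 259, 265, 255, 288 and 266 CPM in the TAC NRG libraries, 231, 299, 285, 261 and 218 CPM in the TAC saline libraries and 336, 333, 351, 308 and 314 CPM in the sham saline libraries. Both TAC groups lay wholly below sham saline. Idh3g fell by 0.30 ± 0.08 in TAC NRG (adjusted p = 0.0132) and by 0.35 ± 0.08 in TAC saline (adjusted p = 0.00642). Idh3a, the catalytic subunit, had 495, 557, 446, 536 and 520.0 CPM in the TAC NRG libraries, 504, 523, 577, 485 and 471 CPM in the TAC saline libraries and 579, 587, 643, 619 and 594 CPM in the sham saline libraries. Here too no TAC library reached a sham saline library, although TAC saline 3 and sham saline 1 were close. Idh3a fell by 0.25 ± 0.07 in TAC NRG (adjusted p = 0.0251) and by 0.24 ± 0.07 in TAC saline (adjusted p = 0.0369).

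Sucla2, the subunit that makes the succinyl-CoA ligase form ATP, had 335, 377, 327, 371 and 366 CPM in the TAC NRG libraries, 354, 361, 398, 324 and 329.8 CPM in the TAC saline libraries and 424, 441, 443, 406 and 419 CPM in the sham saline libraries. Its 10 TAC libraries were all below the 5 sham saline libraries. Sucla2 fell by 0.27 ± 0.07 in TAC NRG (adjusted p = 0.0124) and by 0.27 ± 0.07 in TAC saline (adjusted p = 0.0142). Suclg2, the alternative subunit that makes the ligase form GTP, had 113, 131, 101, 92.6 and 93.0 CPM in the TAC NRG libraries, 112, 131, 122, 110.2 and 109.5 CPM in the TAC saline libraries and 151, 144, 129, 122 and 126 CPM in the sham saline libraries. TAC NRG 2 lay within the sham saline range and the other 4 TAC NRG libraries below it. Suclg2 fell by 0.35 ± 0.10 in TAC NRG (adjusted p = 0.0131), and in TAC saline its log2 fold change was -0.20 ± 0.10 (adjusted p = 0.194). TAC NRG 4 and 5, the shallowest libraries, were the lowest for Suclg2. Without them the TAC NRG value was -0.23 (adjusted p = 0.139), and with cardiomyocyte marker reads as the scaling it was -0.24 (adjusted p = 0.186). Of the other genes that passed, Suclg1, the subunit common to both ligases, fell by 0.27 ± 0.08 in TAC NRG and 0.25 ± 0.08 in TAC saline. Fh1 fell by 0.25 ± 0.08 in TAC NRG (adjusted p = 0.025) and was at -0.22 ± 0.08 in TAC saline (adjusted p = 0.0672). The TAC NRG call of Fh1 passed under 19 of the 26 alternatives at the same threshold. Idh3b fell by 0.24 ± 0.08 in TAC saline (adjusted p = 0.0464) and was at -0.22 ± 0.08 in TAC NRG (adjusted p = 0.0537).

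Of the 3 ketone body enzymes, 1 rose and 1 fell in TAC NRG, and none passed the threshold in TAC saline. Bdh1, the mitochondrial dehydrogenase that oxidises beta-hydroxybutyrate to acetoacetate, was the one gene of the 37 that rose against sham saline. It had 90.8, 67.8, 106, 118 and 74.5 CPM in the TAC NRG libraries, 74.5, 51.4, 105, 59.5 and 102 CPM in the TAC saline libraries and 43.5, 72.1, 38.1, 59.0 and 48.9 CPM in the sham saline libraries. TAC NRG 1, 3, 4 and 5 were above every sham saline library, and TAC NRG 2 was below sham saline 2 only. TAC saline was split, with replicates 1, 3 and 5 above every sham saline library and replicates 2 and 4 within the sham saline range. Bdh1 rose 1.75-fold in TAC NRG, a log2 fold change of 0.81 ± 0.19 (adjusted p = 0.00374). In TAC saline the log2 fold change was 0.56 ± 0.19 (adjusted p = 0.0522), just short of the threshold. It passed, with a positive log2 fold change, under all 3 other scalings (adjusted p = 0.0243 with total reads, 0.044 with nuclear reads and 0.0312 with cardiomyocyte marker reads), and its adjusted p ranged from 0.0151 to 0.174 over 27 alternatives, of which 13 passed.

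Bdh1 was also the member with the widest spread within each group. Its coefficient of variation was 23.1% in TAC NRG, 30.9% in TAC saline and 25.8% in sham saline, where the median over the 37 genes was 8.03% in TAC NRG, 9.60% in TAC saline and 5.98% in sham saline. The rise in TAC NRG passed the threshold of 0.05 under all 26 alternatives run at that threshold, with a log2 fold change between 0.71 and 0.94 and an adjusted p of at most 0.0364. In TAC NRG against TAC saline the log2 fold change of Bdh1 was 0.25 ± 0.19 (95% interval -0.13 to 0.63, adjusted p = 0.561), so a difference between the TAC groups was not detectable.

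Oxct1, the succinyl-CoA transferase that activates acetoacetate and commits it to oxidation, had 790.4, 923, 784, 625 and 559.8 CPM in the TAC NRG libraries, 867, 825, 943, 759 and 867 CPM in the TAC saline libraries and 959, 1027, 859, 1055 and 964 CPM in the sham saline libraries. In TAC NRG all libraries but replicate 2 were below every sham saline library, and replicates 4 and 5 were the lowest of the 15. Oxct1 fell by 0.42 ± 0.10 in TAC NRG (adjusted p = 0.00613), and in TAC saline its log2 fold change was -0.19 ± 0.10 (adjusted p = 0.266). Without TAC NRG 4 and 5 the TAC NRG value was -0.23 (adjusted p = 0.0983), and with cardiomyocyte marker reads as the scaling it was -0.31 (adjusted p = 0.131). Acat1, the thiolase that splits acetoacetyl-CoA into acetyl-CoA and also acts in isoleucine breakdown, had 457, 508, 458, 447 and 454 CPM in the TAC NRG libraries, 473, 476, 510.3, 430.1 and 432 CPM in the TAC saline libraries and 537, 557, 462, 508 and 545 CPM in the sham saline libraries. Its groups overlapped, with a log2 fold change of -0.17 ± 0.07 in TAC NRG (adjusted p = 0.127) and -0.17 ± 0.07 in TAC saline (adjusted p = 0.145).

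**Figure D2:**
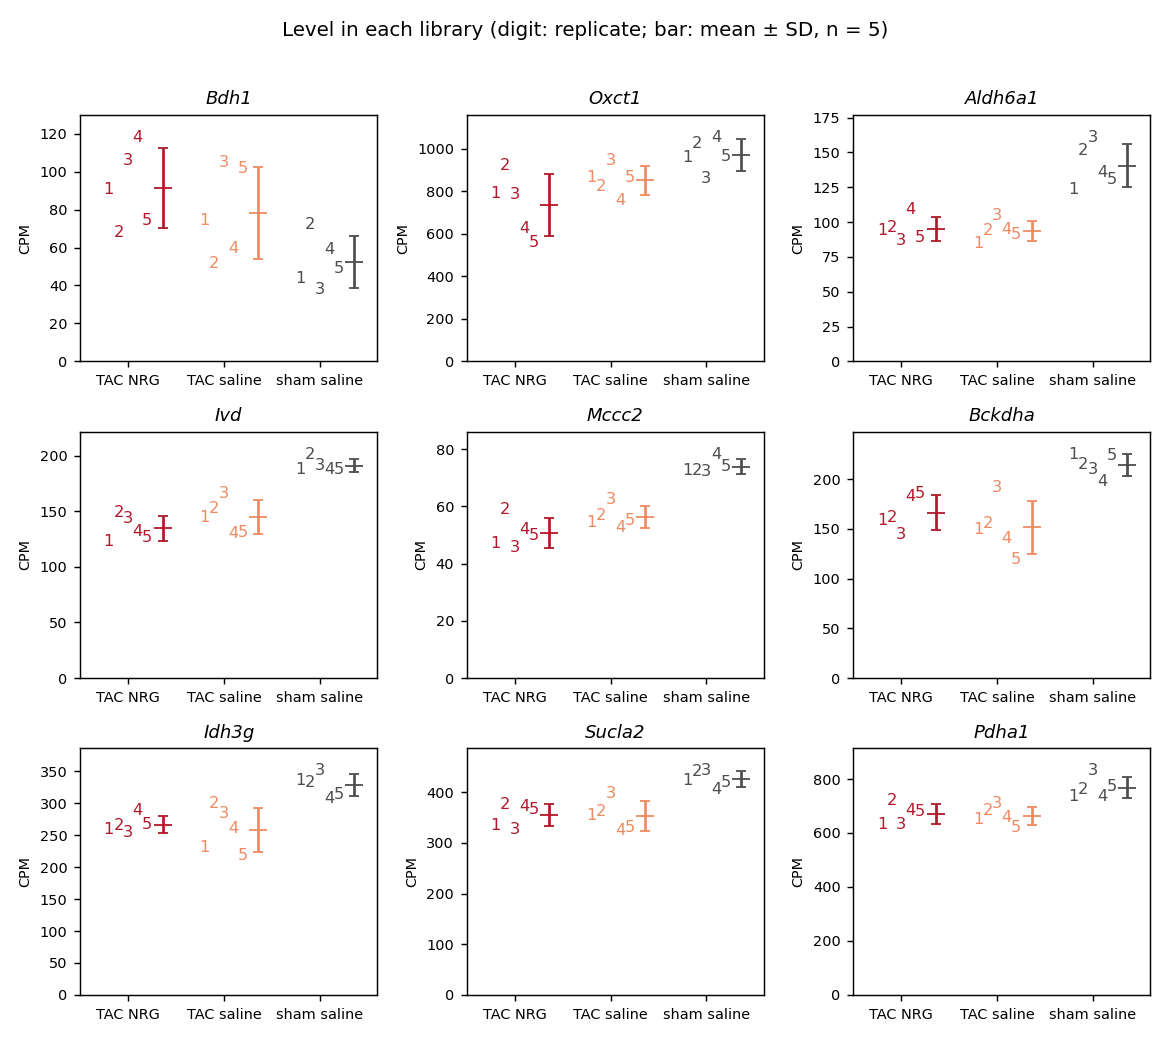
Level of Bdh1, Oxct1, Aldh6a1, Ivd, Mccc2, Bckdha, Idh3g, Sucla2 and Pdha1 (y axis, CPM on the authors' scaling, from 0) in each library of TAC NRG, TAC saline and sham saline (x axis); digits are replicate numbers, bars the mean ± SD of 5 libraries. The TAC libraries of Aldh6a1 (84.3 to 109 CPM) lie below those of sham saline (124 to 161 CPM), while Bdh1 spans 51.4 to 118 CPM in the TAC libraries against 38.1 to 72.1 CPM in sham saline.

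Branched-chain amino acid oxidation was the pathway with the highest share of genes that fell. In TAC saline 12 of 14 fell (all but Bckdk and Hibch) with a median log2 fold change of -0.40, and in TAC NRG 11 of 14 fell (all but Bckdk, Hibch and Pccb) with a median of -0.38. The 14 genes summed to 1193 ± 53.0 CPM in TAC NRG, 1178 ± 125 CPM in TAC saline and 1528 ± 62.1 CPM in sham saline (SD, n = 5 each). The sums of single libraries reached 1245 CPM in TAC NRG and 1371 CPM in TAC saline, both below the lowest sham saline library at 1472 CPM. Whether branched-chain genes fell more than those of the other pathways was not tested.

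Promoter windows are shown for 6 branched-chain genes, chosen because they fell in a TAC group and their window holds 1 of 2 known motifs. Hibch, a branched-chain gene that passed in neither comparison with sham saline, also holds the GC box described below and is not shown. Of the 6, Auh, Bckdhb, Mccc1, Pcca and Hibadh fell in both TAC groups and Pccb in TAC saline. Aldh6a1, Bckdha, Ivd, Mccc2 and Acadsb also fell in both TAC groups, and their windows hold neither motif. Whether either motif has a part in the falls was not tested. Each promoter window is a part of the 250 bases before an annotated start. The windows are printed 5′ to 3′ on the strand of the gene, from RefSeq on GRCm38.p6, with the motif in capitals. They hold the GC box (GGGGCGGGG or its reverse complement), which proteins of the KLF and SP families bind, or the motif of the nuclear respiratory factor NRF1 (GCGCA, any base and GCGC, or its reverse complement).
Auh: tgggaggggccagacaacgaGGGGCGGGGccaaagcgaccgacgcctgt
Bckdhb: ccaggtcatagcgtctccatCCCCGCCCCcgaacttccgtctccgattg
Mccc1: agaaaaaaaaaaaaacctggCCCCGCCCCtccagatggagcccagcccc
Pcca: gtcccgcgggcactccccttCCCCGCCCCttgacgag
Hibadh: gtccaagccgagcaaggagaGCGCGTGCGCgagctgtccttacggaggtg
Pccb: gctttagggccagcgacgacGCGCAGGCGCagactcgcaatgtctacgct
The windows are at chr13:52929709-52929757 (minus strand) for Auh, chr9:83925016-83925064 (plus strand) for Bckdhb, chr3:36000765-36000813 (minus strand) for Mccc1, chr14:122534291-122534327 (plus strand) for Pcca, chr6:52640337-52640386 (minus strand) for Hibadh and chr9:101034924-101034973 (minus strand) for Pccb. The motif begins 60 bases before the annotated start in Auh, 101 in Bckdhb and 115 in Mccc1. In Pcca it begins at 17 bases, in Hibadh at 66 and in Pccb at 69. Bckdhb and Pcca each have another annotated start, and the bases before it hold neither motif. In the 250 bases before the annotated starts, searched on both strands, the GC box was found for 10 of the 34 members with a promoter in the table (29.4%) and for 11.8% of all 27025 genes. The 10 were Auh, Bckdhb, Hibch, Mccc1, Mdh2, Ogdh, Pcca, Pdhb, Sucla2 and Suclg2. The NRF1 motif was found for 3 (Hibadh, Pccb and Sucla2), or 8.82% against 4.23% of all genes. The response element of the estrogen-related receptors (TCAAGGTCA) was found for 0 of 34 and 0.422% of all genes, and its shorter form (AAGGTCA, which overlaps it) for Got1, or 2.94% against 4.70%. Of the 10 genes with a GC box, Hibch, Mdh2 and Ogdh passed in neither comparison with sham saline. Idh3a, Acat1 and Dbt were not in the promoter table. The shares of all genes cover every gene in that table, whether or not it was tested here. The members were not compared with the tested genes alone.

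The first oxidative step of the pathway is the branched-chain ketoacid dehydrogenase complex, with a decarboxylase of Bckdha and Bckdhb and an acyltransferase core of Dbt. All 3 fell in both TAC groups, while Bckdk, the kinase that switches the complex off, did not pass the threshold. Bckdha had 158, 162, 145, 182 and 186 CPM in the TAC NRG libraries, 149, 156, 192, 141 and 119.6 CPM in the TAC saline libraries and 225, 215, 209.7, 198 and 224 CPM in the sham saline libraries. All 10 TAC libraries were below all sham saline libraries. Bckdha fell by 0.37 ± 0.10 in TAC NRG (adjusted p = 0.0114) and by 0.52 ± 0.10 in TAC saline (adjusted p = 0.00129). Bckdhb fell by 0.42 ± 0.13 in TAC NRG and 0.55 ± 0.13 in TAC saline, and Dbt by 0.54 ± 0.15 in TAC NRG and 0.55 ± 0.15 in TAC saline. The TAC NRG call of Bckdhb passed under 20 of the 26 alternatives at the same threshold. It was lost without sham saline 2, the highest sham saline library for Bckdhb at 66.6 CPM. The log2 fold change of Bckdk was -0.13 ± 0.07 in TAC NRG (adjusted p = 0.262) and -0.22 ± 0.07 in TAC saline (adjusted p = 0.0637).

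Leucine is then taken to acetoacetate and acetyl-CoA by isovaleryl-CoA dehydrogenase (Ivd), the biotin enzyme methylcrotonyl-CoA carboxylase (Mccc1 and Mccc2) and the hydratase Auh. All 4 genes fell in both TAC groups. Ivd had 123, 149, 143, 132 and 126 CPM in the TAC NRG libraries, 144, 153, 166, 130.2 and 131 CPM in the TAC saline libraries and 188, 201, 191, 188 and 187 CPM in the sham saline libraries. Every TAC library was below every sham saline library, and the sham saline libraries other than replicate 2 lay close together. Ivd fell by 0.51 ± 0.08 in TAC NRG (adjusted p = 9.01e-05) and by 0.41 ± 0.08 in TAC saline (adjusted p = 0.0017).

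Mccc2, the non-biotin subunit of the carboxylase, had 47.1, 58.9, 45.7, 51.8 and 49.7 CPM in the TAC NRG libraries, 54.2, 56.6, 62.5, 52.5 and 54.9 CPM in the TAC saline libraries and 72.4, 72.7, 72.3, 78.3 and 73.8 CPM in the sham saline libraries. Its sham saline libraries were again all above the TAC libraries. Mccc2 fell by 0.55 ± 0.09 in TAC NRG (adjusted p = 9.51e-05) and by 0.40 ± 0.09 in TAC saline (adjusted p = 0.00404). Auh had 79.5, 72.3, 63.8, 70.4 and 71.8 CPM in the TAC NRG libraries, 80.2, 76.1, 89.2, 67.4 and 64.1 CPM in the TAC saline libraries and 89.7, 104, 91.7, 99.0 and 95.6 CPM in the sham saline libraries, with TAC saline 3 close below the lowest sham saline library. It fell by 0.43 ± 0.09 in TAC NRG (adjusted p = 0.00224) and by 0.36 ± 0.09 in TAC saline (adjusted p = 0.0133). Mccc1, the biotin-carrying subunit, fell by 0.32 ± 0.10 in TAC NRG and 0.36 ± 0.10 in TAC saline, and without TAC NRG 4 and 5 its TAC NRG value was -0.25 (adjusted p = 0.163).

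Among the genes of the valine and isoleucine arms described next, Hibch passed in neither comparison with sham saline, Pccb fell in TAC saline, and the others fell in both TAC groups. Aldh6a1, the methylmalonate semialdehyde dehydrogenase of valine breakdown, had the largest fall of the 37 genes in each comparison with sham saline. It had 94.1, 96.5, 87.0, 109 and 88.6 CPM in the TAC NRG libraries, 84.3, 93.9, 104, 94.3 and 91.0 CPM in the TAC saline libraries and 124, 152, 161, 136 and 130.3 CPM in the sham saline libraries. The lowest sham saline library was above the highest TAC library. Aldh6a1 fell by 0.56 ± 0.09 in TAC NRG (adjusted p = 9.51e-05) and by 0.58 ± 0.09 in TAC saline (adjusted p = 0.000122), to 0.678 of the sham saline level in TAC NRG and 0.668 in TAC saline. Hibadh, the dehydrogenase just before it in valine breakdown, fell by 0.33 ± 0.09 in TAC NRG and 0.36 ± 0.09 in TAC saline. Hibch, the hydrolase before Hibadh, was near sham saline, at -0.01 ± 0.09 in TAC NRG (adjusted p = 0.963) and 0.07 ± 0.09 in TAC saline (adjusted p = 0.676). Acadsb, the acyl-CoA dehydrogenase of isoleucine breakdown, fell by 0.28 ± 0.09 in TAC NRG (adjusted p = 0.0454) and 0.31 ± 0.09 in TAC saline (adjusted p = 0.0355). Without TAC NRG 4 and 5 the TAC NRG value of Acadsb was -0.23 (adjusted p = 0.141), and it passed under 11 of the 26 alternatives.

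Propionyl-CoA carboxylase, which carries the products of isoleucine and valine towards succinyl-CoA, is encoded by Pcca and Pccb. Pcca fell by 0.40 ± 0.12 in TAC NRG (adjusted p = 0.0295) and by 0.44 ± 0.12 in TAC saline (adjusted p = 0.0224). Of the 26 alternatives at the same threshold, these calls passed under 19 in TAC NRG and 20 in TAC saline. Pccb had 44.4, 54.4, 57.2, 55.0 and 53.7 CPM in the TAC NRG libraries, 43.8, 46.1, 48.7, 38.2 and 42.9 CPM in the TAC saline libraries and 73.0, 62.1, 76.4, 54.5 and 51.9 CPM in the sham saline libraries. TAC saline was wholly below sham saline, whereas 4 of the 5 TAC NRG libraries lay above every TAC saline library and within the sham saline range. Pccb fell by 0.52 ± 0.11 in TAC saline (adjusted p = 0.00326), and in TAC NRG its log2 fold change against sham saline was -0.25 ± 0.11 (adjusted p = 0.124).

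The aspartate transaminases link the TCA cycle to amino acids and to the malate-aspartate shuttle that carries reducing power into mitochondria. Neither passed the threshold. Got1, the cytosolic enzyme, had 669, 701, 659.6, 789 and 714 CPM in the TAC NRG libraries, 648, 618, 751, 606 and 553 CPM in the TAC saline libraries and 795, 674, 741, 746 and 794 CPM in the sham saline libraries. The groups overlapped, and the log2 fold change was -0.09 ± 0.08 in TAC NRG (adjusted p = 0.522) and -0.24 ± 0.08 in TAC saline (adjusted p = 0.0501). In TAC saline the adjusted p of Got1 ranged from 0.00796 to 0.575 over 27 alternatives, and 10 of them were under 0.05. Got2, the mitochondrial enzyme, had 319, 340.2, 292, 364 and 314 CPM in the TAC NRG libraries, 269, 351, 334, 344 and 288 CPM in the TAC saline libraries and 355, 337, 325, 348 and 371 CPM in the sham saline libraries. Its log2 fold change was -0.09 ± 0.08 in TAC NRG (adjusted p = 0.49) and -0.14 ± 0.08 in TAC saline (adjusted p = 0.324), again with overlapping groups. Got2 has an annotated pseudogene, Got2-ps1, so its reads may be shared with that copy.

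Between the constricted groups, whose labels differ only in what the minipump held, none of the 37 genes differed past the threshold. In TAC NRG against TAC saline 0 of 37 passed with limma, where 1.3% of all genes did, and 0 passed when limma was run with voom weights on the recovered reads. At an unadjusted p under 0.05 there were 2 of 37, Pccb and Oxct1, against 15.3% of all genes. The median log2 fold change was 0.02, with a range of -0.23 to 0.27, and no gene had groups without overlap, which 1.25% of all genes had with TAC NRG lower and 1.81% with TAC NRG higher. The 95% intervals of the 36 genes other than Bdh1 ran from -0.44 at the lowest to 0.50 at the highest, which limits how large a difference these libraries leave unseen.

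The 6 genes with the smallest p in this comparison were Pccb, Oxct1, Got1, Mccc2, Suclg2 and Bckdha, whose library values are given above. Pccb averaged 52.9 ± 4.96 CPM in TAC NRG against 43.9 ± 3.91 CPM in TAC saline (SD, n = 5 each), a log2 fold change of 0.27 ± 0.11 (adjusted p = 0.248). Oxct1 averaged 736 ± 144 CPM in TAC NRG against 852 ± 67.4 CPM in TAC saline, a log2 fold change of -0.23 ± 0.10 (adjusted p = 0.288). Without TAC NRG 4 and 5 that value was -0.03 (adjusted p = 0.949). These 2 libraries also had the highest summed red cell markers, 3488 and 3340 CPM against 1703 to 2113 CPM in the other TAC NRG libraries, and the part of this in Oxct1 was not tested. Got1 and Bckdha were at 0.16 ± 0.08 and 0.15 ± 0.10, and Mccc2 and Suclg2 at -0.15 ± 0.09 and -0.15 ± 0.10, with adjusted p between 0.353 and 0.5.

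Other genes of the same pathways were described from a list of 46, of which 43 were tested. Against sham saline 13 of the 43 fell and 1 rose in TAC NRG, and 12 fell and none rose in TAC saline, while between the TAC groups none passed. Of all genes tested, 7.39% fell and 8.74% rose in TAC NRG, 4.24% fell and 6.47% rose in TAC saline, and 1.3% passed between the TAC groups. The median of the 43 was -0.18 in TAC NRG and -0.25 in TAC saline, against -0.012 and -0.0052 over all genes. Around pyruvate dehydrogenase, the pyruvate carrier gene Mpc2, the inhibitory kinase gene Pdk2 and the activating phosphatase gene Pdp2 fell in both TAC groups. Pdp2 fell by 1.12 ± 0.18 to 12.6 ± 2.81 CPM in TAC NRG and by 0.68 ± 0.18 to 17.2 ± 4.16 CPM in TAC saline, against 27.1 ± 4.57 CPM in sham saline. Pdpr, which encodes a regulatory subunit of pyruvate dehydrogenase phosphatase, fell by 1.00 ± 0.31 in TAC NRG (adjusted p = 0.0288). Its level was 3.25 ± 1.23 CPM there and 6.05 ± 1.17 CPM in sham saline. Pcx, pyruvate carboxylase, fell by 0.45 ± 0.12 in TAC saline (adjusted p = 0.0198).

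Among the neighbours of the TCA cycle, Sdha, the flavoprotein of succinate dehydrogenase, fell by 0.38 ± 0.08 in TAC NRG (adjusted p = 0.00107) and by 0.37 ± 0.08 in TAC saline (adjusted p = 0.00216). Gpt2, the mitochondrial alanine transaminase, fell by 0.84 ± 0.15 in TAC NRG and 0.51 ± 0.15 in TAC saline. Sdhb, the iron-sulfur subunit, fell by 0.31 ± 0.08 in TAC saline, and Me3, a mitochondrial malic enzyme, and Ogdhl, a paralogue of Ogdh, fell in TAC NRG, by 0.39 ± 0.10 for Me3 and 0.74 ± 0.15 for Ogdhl. The gene that rose was Slc16a1, a transporter of lactate, pyruvate and ketone bodies, at 0.27 ± 0.08 in TAC NRG (adjusted p = 0.0203) and 0.09 ± 0.08 in TAC saline (adjusted p = 0.576).

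The branched-chain neighbours that fell in both TAC groups were Ppm1k, Echs1, Mcee, Mmut and Klf15. Ppm1k, the phosphatase that activates the branched-chain ketoacid dehydrogenase, fell by 0.53 ± 0.13 in TAC NRG and 0.42 ± 0.13 in TAC saline. Mmut, the cobalamin-dependent mutase that makes succinyl-CoA, fell by 0.60 ± 0.10 in TAC NRG (adjusted p = 0.000134) and 0.33 ± 0.10 in TAC saline (adjusted p = 0.0287). Mcee, the epimerase before it, fell by 0.47 ± 0.10 in TAC NRG and 0.41 ± 0.10 in TAC saline. Klf15, a transcription factor known to promote branched-chain amino acid breakdown, fell by 0.53 ± 0.15 in TAC NRG (adjusted p = 0.0168) and 0.69 ± 0.15 in TAC saline (adjusted p = 0.00359). Echs1, an enoyl-CoA hydratase, fell by 0.29 ± 0.08 in TAC NRG and 0.27 ± 0.08 in TAC saline.

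Single libraries differed in how far the 37 genes lay below the sham saline mean. The median log2 difference was -0.27, -0.16, -0.32, -0.21 and -0.20 in TAC NRG 1 to 5, and -0.24, -0.19, -0.07, -0.33 and -0.37 in TAC saline 1 to 5. In sham saline it was between -0.02 and 0.03. TAC saline 3, the library nearest to sham saline, was the highest of its group for 31 of the 37 genes, and TAC saline 5 and 4 were the lowest for 18 and 16. That library also had the lowest sum of fibroblast markers in its group, 1386 CPM against 1898 to 2633 CPM in the other 4, and the highest sum of cardiomyocyte markers, 66606 CPM against 52115 to 63234 CPM. In TAC NRG, replicate 3 was the lowest for 22 of the 37 genes and had the highest fibroblast sum, 3347 CPM, and the lowest cardiomyocyte sum, 51355 CPM. The part of these differences in makeup in the levels of the 37 genes was not tested.

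**Figure D3:**
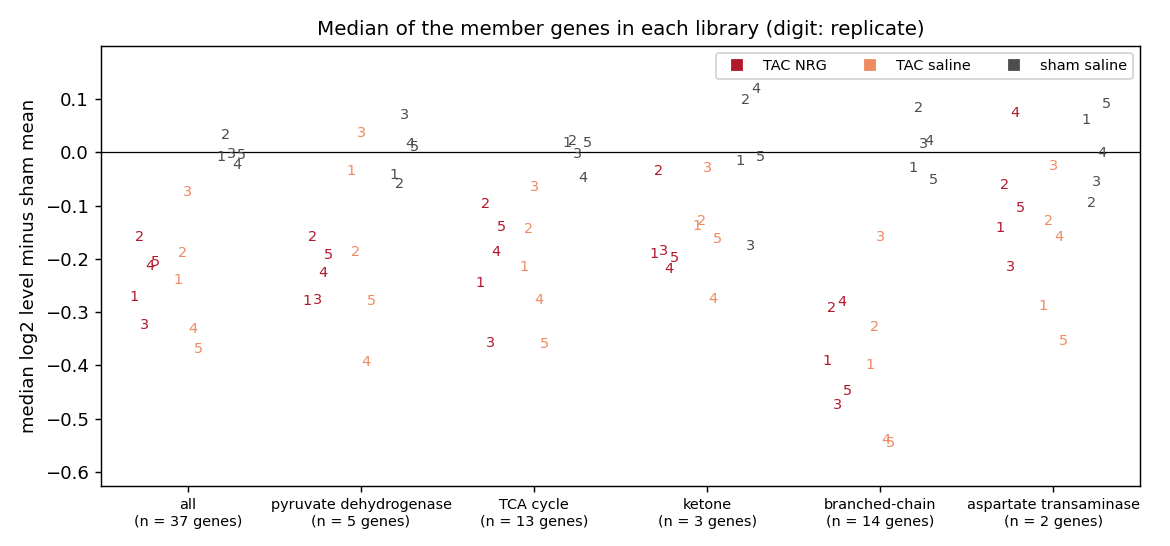
Median log2 level of the genes of each pathway in each library, minus the sham saline mean (y axis), by pathway (x axis); digits are replicate numbers, and the groups are TAC NRG, TAC saline and sham saline. For branched-chain genes the TAC libraries lie between -0.55 and -0.16 and sham saline between -0.05 and 0.08, with TAC saline 3 the TAC library nearest to sham saline.

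How many genes passed depended on the scaling. On the authors' scaling 1777 of the 11018 genes tested passed in TAC NRG against sham saline, 54.2% of them higher. In TAC saline against sham saline 1180 passed, 60.4% of them higher. With total reads as the only scaling, 9 of the 37 genes fell in TAC NRG and 8 in TAC saline, and Bdh1 rose in both. Of all genes tested, 1798 then passed in TAC NRG (75.9% of them higher) and 1269 in TAC saline (84.9% of them higher). With the summed reads of 10 cardiomyocyte markers, 5 fell in TAC NRG (Bckdha, Ivd, Mccc2, Aldh6a1 and Auh) and 2 in TAC saline (Bckdha and Aldh6a1), and Bdh1 again rose in both. Under that scaling 1283 of all genes passed in TAC NRG (79.1% of them higher) and 1085 in TAC saline (91.5% of them higher). Of those 10 markers themselves, Actn2 and Tnnc1 rose and Tnni3, Ryr2 and Pln fell in both TAC groups against sham saline, and Myh6 fell in TAC NRG. Tnnt2 rose in TAC NRG against TAC saline. Those 2 scalings moved the median of all genes in TAC saline against sham saline to 0.11 and 0.17 (total reads and cardiomyocyte markers), and in TAC NRG against sham saline to 0.08 and 0.10. A scaling shifts all genes of a comparison alike, so the median of the 37 genes relative to that of all genes, -0.25 in TAC NRG and -0.22 in TAC saline, is the same under each by construction. With the reads of nuclear genes only, which leaves out the mitochondrially encoded genes, 23 of the 37 fell in TAC NRG and 14 in TAC saline, and Bdh1 rose in both. The calls over all genes were then 1741 in TAC NRG (49.5% of them higher) and 1112 in TAC saline (70.1% of them higher). Genes whose sign against sham saline turned under a scaling were Dlat, Cs, Dlst, Idh2, Acat1, Hibch, Got1 and Got2, none of which passed in a comparison with sham saline on the authors' scaling. In TAC NRG against TAC saline, 25 of the 37 genes were at or above 0 on the authors' scaling, 19 with total reads, 8 with nuclear reads and 8 with cardiomyocyte marker reads. The falls of Bckdha and Aldh6a1 in both TAC groups, of Ivd, Mccc2 and Auh in TAC NRG, and the rise of Bdh1 in TAC NRG passed under every one of the 26 alternatives at a threshold of 0.05.

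**Figure D4:**
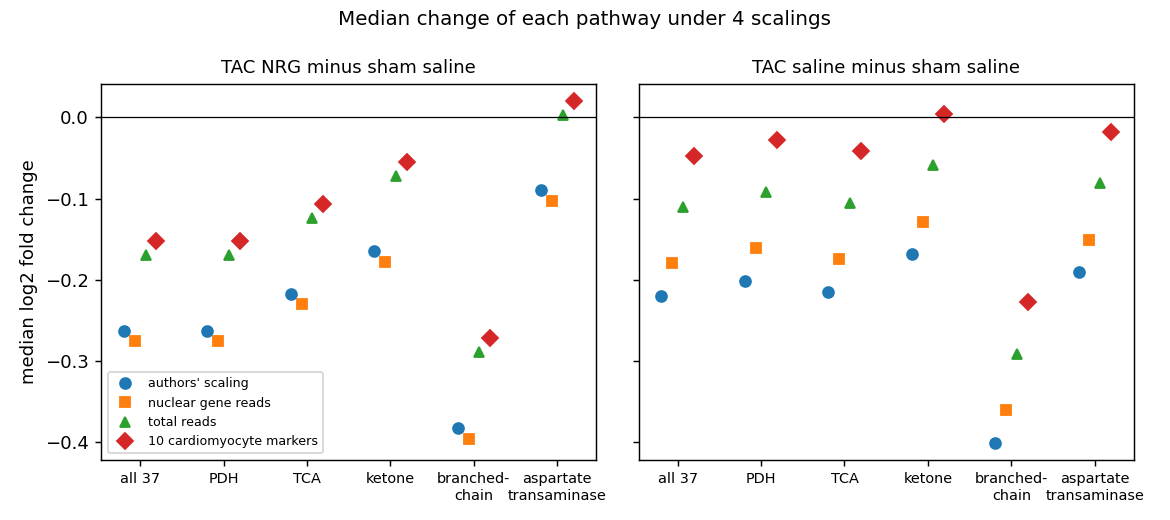
Median log2 fold change (y axis) of all 37 genes and of each pathway (x axis) under 4 scalings, for TAC NRG minus sham saline and TAC saline minus sham saline; symbols stand for the scalings. The branched-chain median lies between -0.40 and -0.27 in TAC NRG and between -0.40 and -0.23 in TAC saline, and a scaling moves all pathways of a comparison alike.

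Of the 37 genes, 7 overlap an annotated gene on the opposite strand (Pdha1, Idh3b, Bdh1, Oxct1, Mccc1, Aldh6a1 and Got2), and whether reads were counted by strand is not given in the sources used here. Overlapping partners in the files were low, the highest being Nop56 beside Idh3b at a mean of 10.9 CPM in TAC NRG, 11.7 CPM in TAC saline and 11.2 CPM in sham saline. The partner of Bdh1, Gm15743, averaged 1.5 CPM in TAC NRG, 1.48 CPM in TAC saline and 1.5 CPM in sham saline.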

How the data were processed

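Left ventricular RNA of 15 libraries was read by 3′-end BRB-seq, per the labels. Reads were assigned to genes on GRCm39, per the submitters' processing notes, the aligner and counter being not given in the sources used here. Each deposited file holds log2 values, which by their spacing equal the log2 of reads plus 0.5, multiplied by the authors' factor for that library, and 98.9% to 99.5% of values per library gave reads within 0.05 of a whole number. No libraries of a group were duplicates (chi-square per degree of freedom 2.27 to 12.1).

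A linear model with a trend of spread on level (limma 3.58.1, R 4.3.3) was fitted to the log2 values of all 15 libraries. The same type of fit was also run on simulated reads, scaled by total reads and drawn with the same spread for all genes. Those settings differ from the data, and the outcome is not reported here. The filter kept genes at 2.95 or more reads per M, which is 10 reads in the median library, in 5 or more libraries and with 15 reads in all. Tests were two-sided with Benjamini-Hochberg adjustment over 11018 genes and a threshold of 0.05, and log2 fold changes are given ± SE. Replicate numbers were not treated as pairs, since no pairing by number was detectable in the values.

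The members, gene lists and tests were chosen with earlier results of these data known. Library values are given for Bdh1, for the 3 members per pathway with the smallest p in TAC saline against sham saline and for the 6 with the smallest p in each other comparison; other members and listed genes past the threshold are named with fold changes. Alternatives changed the scaling, filter, pseudocount, spread, groups, block, threshold and libraries. Gene overlaps came from GENCODE vM21 on GRCm38, promoters from RefSeq on GRCm38.p6, and tables from Python 3.11.15 with pandas 2.3.3.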

Additional observations from a re-analysis of the deposited data

Results flagged for a closer look

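For each of the 37 genes in each group, 111 sets of 5 libraries in all, the gap between the extreme library and its nearest neighbour was compared with the range of the group, and 6 sets had a gap above 0.71 of the range. Chance flags about 1 in 20 such sets. Acat1 had 508 CPM in TAC NRG 2, against 447 to 458 CPM in the other TAC NRG libraries. Pccb had 44.4 CPM in TAC NRG 1, against 53.7 to 57.2 CPM in the others of that group. Acadsb had 59.0 CPM in TAC saline 5, against 63.4 to 64.3 CPM in the other TAC saline libraries. In sham saline, Bckdhb had 66.6 CPM in replicate 2 against 47.1 to 50.9 CPM in the other 4 libraries, and Ivd had 201 CPM in the same replicate against 187 to 191 CPM. Mccc2 had 78.3 CPM in sham saline 4, against 72.3 to 73.8 CPM in the other sham saline libraries.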

How the results depend on the processing

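No gene of the 37 past the threshold, and neither median against sham saline, changed sign under any of the 27 alternatives. TAC NRG against TAC saline gave 0 of the 37 genes under each, with medians of -0.043 to 0.06. The 37 genes gave 10 calls with total reads and 6 with cardiomyocyte marker reads as the scaling in TAC NRG against sham saline (22 on the authors' scaling), and 9 and 3 in TAC saline against sham saline (18). Their medians were then -0.17 and -0.15 in TAC NRG, and -0.11 and -0.047 in TAC saline. At a threshold of 0.01 the calls were 7 in TAC NRG and 8 in TAC saline.

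Leaving out each library in turn gave 15 to 24 calls and medians of -0.28 to -0.23 in TAC NRG against sham saline, and 9 to 24 calls and medians of -0.28 to -0.20 in TAC saline against sham saline; the median in TAC NRG against TAC saline was then -0.01 to 0.06. Over all genes the counts were 1338 to 1854 in TAC NRG against sham saline (1777), 636 to 1495 in TAC saline against sham saline (1180; 636 without TAC saline 5, 708 without TAC saline 1) and 58 to 229 in TAC NRG against TAC saline (143; 78, 92 and 93 without TAC saline 1, 4 and 5, 229, 58 and 77 without TAC NRG 2, 4 and 5). The last was 39 without TAC NRG 4 and 5 together, 77 with only those groups fitted and 59 with cardiomyocyte marker reads. At a threshold of 0.01 the all-gene counts were 849, 505 and 39 in TAC NRG against sham saline, TAC saline against sham saline and TAC NRG against TAC saline. The cause of these changes was not tested.

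The share of higher genes among all calls was 54.2% in TAC NRG against sham saline (75.9% with total reads, 79.1% with cardiomyocyte marker reads), 60.4% in TAC saline against sham saline (84.9% and 91.5%) and 51.7% in TAC NRG against TAC saline (44% with total reads, 32.6% with nuclear reads, 35.6% with cardiomyocyte marker reads). With the replicate number as a block the 37 genes gave 20, 14 and 0 calls in the same 3 comparisons, and all genes 1645, 1049 and 111. Same-numbered libraries correlated at -0.25 to 0.08 and 2 of 15 correlated best with their own number, so no pairing by number was detectable. A pairing with little effect on expression would not be seen this way. The tests planned for whole counts (edgeR and DESeq2) were not run because the deposited values are log2; voom weights in limma were added after the data were seen. Depth limited Dbt most, at 43 reads in its lowest library.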
